A study of Mus musculus with 8 samples.

Results

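Livers of 4 db/db mice were compared with livers of 4 db/+ mice on 1-colour Agilent arrays for mouse microRNAs (miRNAs), 1 array per animal. The account follows 7 of the 567 mouse miRNAs on the array. They are mmu-miR-99b, mmu-let-7e, mmu-miR-125a-5p and mmu-miR-125a-3p, made from 1 cluster on mouse chromosome 17, and the related mmu-miR-99a, mmu-miR-100 and mmu-miR-125b-5p, made from homologous clusters on chromosomes 16 and 9. The prefix mmu, for mouse, is left out of most names below. They were picked by name with earlier values of these same arrays known, among them the db/db minus db/+ differences of miR-99b, let-7e, miR-125a-5p and miR-125b-5p. The strain differences of these miRNAs, and the count of them that passed the fit over all miRNAs, are therefore given as a description, with no p-value for any of them.

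db/db mice are homozygous for a mutation of the leptin receptor and become obese and diabetic. The db/+ mice carry 1 mutant and 1 normal allele and are the non-diabetic controls. The labels place the db/db line on the C57BL/KsJ background, and the series text reports higher body weight and plasma glucose in the db/db animals. The sources used here give neither age nor sex. The mutation is carried by the whole animal, so neither liver nor any cell type was targeted. Whole liver RNA was measured, so fewer cells of a type and less RNA per cell cannot be told apart.

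A miRNA guides a silencing complex to messenger RNAs that pair with its seed, the bases just behind its 5′ end, and lowers their translation or stability. Mammalian genomes hold several clusters in which a miR-99 or miR-100 gene lies with a let-7 gene and a miR-125 gene. Because relatives in different clusters share a seed, they can bind many of the same messages although they are made from different transcripts. let-7 miRNAs restrain growth and cell cycle genes and, in mice, affect glucose handling through insulin signalling genes. miR-99a and miR-100 are known to target the growth kinase mTOR, and miR-125 miRNAs are relatives of worm lin-4 and act in blood cell development.

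The mature sequences are shown because the comparison rests on relatives that differ by a few bases. They are RefSeq sequences of assembly GRCm38.p6, written 5′ to 3′ with the seed, bases 2 to 8, in capitals, and all 7 miRNAs had an entry. miR-99b (chromosome 17), miR-99a (chromosome 16) and miR-100 (chromosome 9) shared the seed ACCCGUA.
miR-99b: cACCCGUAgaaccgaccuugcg
miR-99a: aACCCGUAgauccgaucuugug
miR-100: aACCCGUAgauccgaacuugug

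let-7e (chromosome 17) carried the let-7 seed GAGGUAG, which 11 mature miRNAs of the RefSeq table held. let-7c and let-7a are the let-7 miRNAs of the homologous clusters and serve as its counterparts, although each also has a gene elsewhere.
let-7e: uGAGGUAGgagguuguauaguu
let-7c: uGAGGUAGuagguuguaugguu
let-7a: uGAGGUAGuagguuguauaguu

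miR-125a-5p (chromosome 17) and miR-125b-5p (chromosome 16) shared the seed CCCUGAG.
miR-125a-5p: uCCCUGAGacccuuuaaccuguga
miR-125b-5p: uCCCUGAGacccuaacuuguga

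miR-125a-3p comes from the other arm of the Mir125a hairpin, and no other mature miRNA of the RefSeq table had its seed, CAGGUGA.
miR-125a-3p: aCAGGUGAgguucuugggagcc

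The Mir125a hairpin (chromosome 17) is shown to set both arms side by side. The 24 bases of miR-125a-5p and the 22 bases of miR-125a-3p are in capitals, with 14 bases between them.
Mir125a: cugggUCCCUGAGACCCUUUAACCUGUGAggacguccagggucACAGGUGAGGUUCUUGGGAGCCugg

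Relatives differed mainly behind the seed. Counted from 1 at the 5′ end, with the base of the first-named miRNA first, let-7e differed from let-7a by G9U alone and from let-7c by G9U and A19G. miR-99b differed from miR-99a by C1A, A11U, C16U and C21U, and from miR-100 by C1A, A11U, C16A and C21U. miR-99a and miR-100 differed by U16A. miR-125a-5p and miR-125b-5p were identical over their first 13 bases, and 3 single-base edits (substitutions, insertions or deletions) separated the whole sequences.

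The array files place the probes on mouse build mm9. The longest probes of the cluster lie at chr17:17967164-17967179 for miR-99b, chr17:17967333-17967351 for let-7e, chr17:17967786-17967804 for miR-125a-5p and chr17:17967825-17967840 for miR-125a-3p. These 3 hairpins lie within the gene Spaca6 in the RefSeq gene table, which does not say whether they are exonic or intronic. The longest probe of miR-99a lies at chr16:77599188-77599206 and that of miR-125b-5p at chr16:77646529-77646545. That of miR-100 lies at chr9:41339523-41339541, within the gene Mir100hg. The probe ends of miR-99b and let-7e are 172 bases apart and those of let-7e and miR-125a-5p 453 bases apart, the same as the spacings of the mature 3′ ends in RefSeq. Placed by these ends, the longest let-7e probe starts at base 4 of the miRNA and covers both positions at which let-7e and let-7c differ. miR-125b-5p and let-7c each have 2 genes in the RefSeq tables. Those of let-7c are Mirlet7c-1 on chromosome 16 and Mirlet7c-2 on chromosome 15, where the array files place its probes. let-7a has Mirlet7a-1 on chromosome 13, where the array files place its probes, and Mirlet7a-2 on chromosome 9. The array signal therefore does not show which gene it came from, and let-7c and let-7a signal may come from outside the homologous clusters.

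A single slide carried the 8 arrays, row 1 holding the db/db samples and row 2 the db/+ samples. Position on the slide and strain therefore cannot be told apart. The arrays detected 133 to 166 mouse miRNAs in db/db and 91 to 255 in db/+. The factor that brought an array to common brightness was 0.85 to 1.06 in db/db and 0.21 to 5.63 in db/+, where db/+ replicates 4 and 2 were the dimmest and replicate 1 the brightest. miR-122, the main miRNA of hepatocytes, stood at 15.42 to 15.55 in db/db and 14.57 to 15.99 in db/+ (log2 scaled signal), and the muscle miRNAs miR-1, miR-133a and miR-206 and the neural miR-124 and miR-9 were detected on no array. miR-128, listed as neural under its older name miR-128a, was detected on 3 of 4 db/db and 2 of 4 db/+ arrays. Below, a level is the log2 of the scaled signal, a mean carries its SD over 4 arrays, and a difference is db/db minus db/+ in log2 units with its standard error (SE) from the limma fit over all miRNAs. Each miRNA is compared only with itself, since different probes do not give comparable levels.

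The differences of the cluster lay below those of its relatives, of which only miR-125b-5p was separated between strains. All 4 miRNAs of the chromosome 17 cluster had a lower mean in db/db, with differences of -1.77 to -0.44 and a median of -0.84, while the paralogs ran from -0.02 to 0.54 with a median of 0.21. Over the 127 miRNAs tested the median difference was 0.15, with 43 negative and 84 positive. In the fit over all 127 miRNAs (limma, Benjamini-Hochberg adjusted p under 0.05), 4 of the 7 passed, where 15% of all tested miRNAs did. The miRNAs that passed as lower in db/db were miR-99b, let-7e and miR-125a-5p (5.51% of all tested miRNAs passed as lower), and miR-125b-5p passed as higher (9.45% passed as higher). The strains did not overlap in the same 4 miRNAs, 3 lower and 1 higher in db/db, where 22.8% of all tested miRNAs did not overlap, 7.09% as lower and 15.7% as higher. These counts restate the differences by which the miRNAs were picked.

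**Figure D1:**
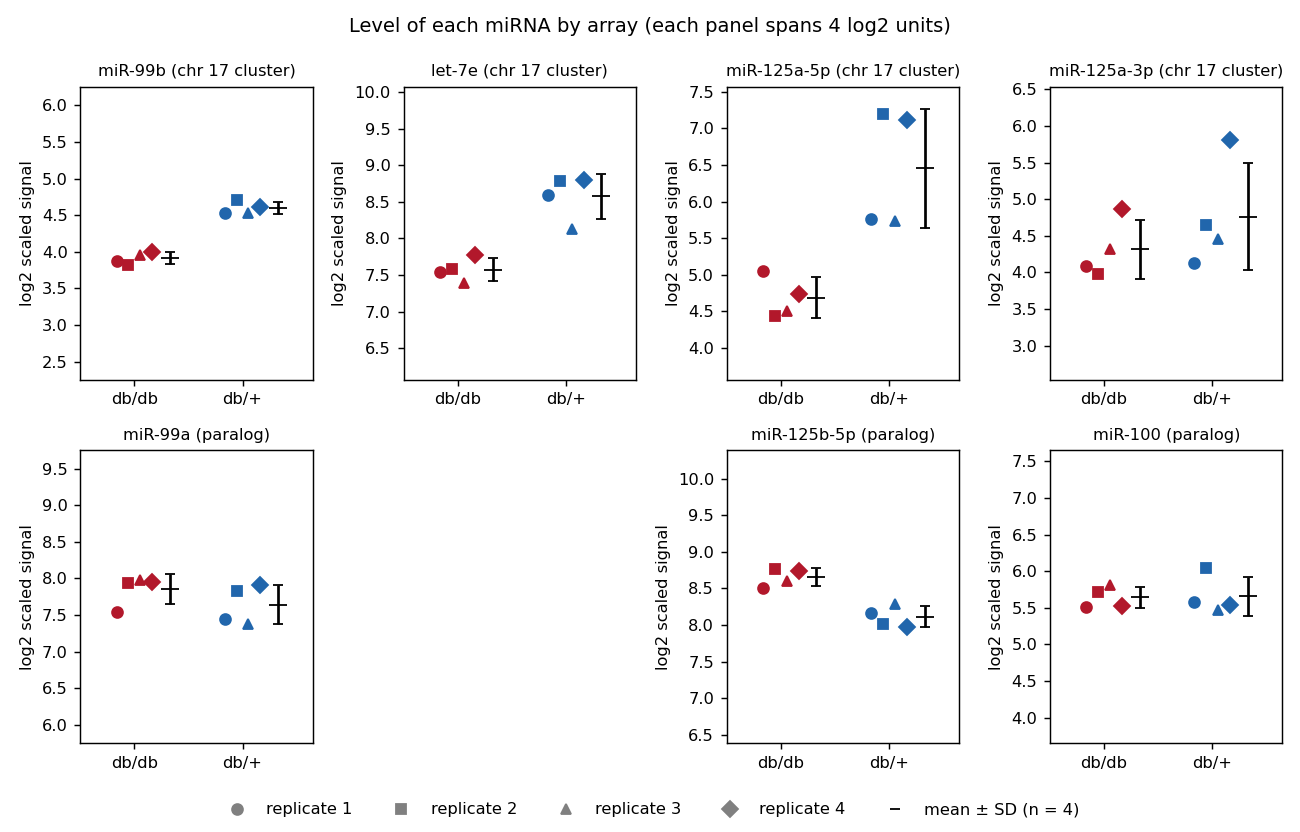
Level of each of the 7 miRNAs, as log2 scaled signal, on every array of db/db (red, left) and db/+ (blue, right) mice. Marker shapes give the replicate, black bars the mean ± SD over 4 arrays, and every panel spans 4 log2 units. In miR-99b, let-7e and miR-125a-5p all db/db arrays lie below all db/+ arrays, and in miR-125b-5p all lie above them.

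mmu-miR-99b, the first miRNA of the cluster, had levels of 3.88, 3.82, 3.96 and 4.00 in db/db, against 4.52, 4.71, 4.54 and 4.61 in db/+. The strains did not overlap, and each held within 0.2 log2 units. The means were 3.91 ± 0.08 in db/db and 4.59 ± 0.08 in db/+, a difference of -0.68 (SE 0.13), or 1.60-fold lower in db/db. It was a dim miRNA, well above background on 1 of 4 db/db arrays and 2 of 4 db/+ arrays, and not detected on db/+ replicate 4. With all values below the highest detection limit of any array set to that limit, its difference was -0.003 and it no longer passed. It passed in 20 of 29 alternatives. Beside that floor, it was lost without scaling, with cyclic loess over all miRNAs, normexp background correction, raw median intensity, the authors' scores and the shortest probes, and 2 stricter filters left it untested.

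mmu-miR-99a, its relative on chromosome 16, had levels of 7.54, 7.94, 7.98 and 7.94 in db/db, against 7.45, 7.83, 7.38 and 7.91 in db/+. The ranges overlapped, and the difference of 0.21 (SE 0.18) was no larger than the spread within db/+, whose SD was 0.27. mmu-miR-100, the relative on chromosome 9, had levels of 5.51, 5.72, 5.81 and 5.53 in db/db, against 5.58, 6.05, 5.47 and 5.53 in db/+. Its strains overlapped too, with a difference of -0.02 (SE 0.17). The sign of the miR-100 difference changed with the probe, being -0.11 on the longer and 0.61 on the shorter one. The shorter probe was at the floor, 2.20, on db/+ replicate 4, and without that array its difference was 0.088.

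mmu-let-7e, the second miRNA of the cluster, had levels of 7.54, 7.59, 7.38 and 7.77 in db/db, against 8.59, 8.78, 8.13 and 8.79 in db/+. The highest db/db array lay below the lowest db/+ array, replicate 3. The means were 7.57 ± 0.16 in db/db and 8.57 ± 0.31 in db/+, a difference of -1.003 (SE 0.18), or 2.004-fold lower in db/db. Every array had let-7e well above background. It passed in 24 of 29 alternatives and was lost without scaling, with cyclic loess over all miRNAs, normexp background correction, raw median intensity, or no filter on dim miRNAs.

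mmu-miR-125a-5p, the 5′ arm of the third hairpin, showed the lowest ratio of db/db to db/+ among the 7. It had levels of 5.06, 4.44, 4.50 and 4.73 in db/db, against 5.77, 7.19, 5.73 and 7.12 in db/+. The strains did not overlap, but the db/+ arrays fell into pairs, replicates 2 and 4 well above replicates 1 and 3. The means were 4.68 ± 0.28 in db/db and 6.45 ± 0.81 in db/+, a difference of -1.77 (SE 0.36), or 3.41-fold lower in db/db. The high db/+ arrays were also the dimmest ones. Before scaling, the signal of miR-125a-5p was 28.2, 23.1, 22.5 and 28.2 in db/db, against 307, 82.5, 83.7 and 29.2 in db/+. The part of array brightness in the size of the difference was not tested. The brighter db/+ replicates 1 and 3 also lay above every db/db array. miR-125a-5p passed in 24 of 29 alternatives and was lost without scaling, with normexp background correction, raw median intensity, the authors' scores, or no filter, and with raw median intensity the difference shrank to -0.56.

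mmu-miR-125a-3p, cut from the same hairpin, had levels of 4.09, 3.97, 4.32 and 4.87 in db/db, against 4.13, 4.65, 4.46 and 5.81 in db/+. The ranges overlapped, and the difference of -0.44 (SE 0.35) was smaller than the SD of 0.73 within db/+. Without db/+ replicate 4 it was -0.19, and on the authors' deposited table, put on a log2 scale, -0.003. It was well above background on 2 of 4 arrays of each strain and was not detected on db/+ replicate 4, the array with its highest scaled value.

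mmu-miR-125b-5p, which has the seed of miR-125a-5p, ran the other way. Its levels were 8.50, 8.77, 8.61 and 8.74 in db/db, against 8.17, 8.02, 8.29 and 7.98 in db/+. Every db/db array lay above every db/+ array, with means of 8.65 ± 0.12 in db/db and 8.12 ± 0.15 in db/+, a difference of 0.54 (SE 0.14), or 1.45-fold higher in db/db. Of the 4 calls this one held in the fewest alternatives, 11 of 29. Among others, it was lost without db/db replicate 2, 3 or 4 or db/+ replicate 1, 2 or 4, and with 75th percentile scaling or quantile normalization, while the difference stayed between 0.36 and 0.60 under all 24 alternatives that gave one.

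Ratios of 2 miRNAs on the same array are free of the factor that scales the array. Each is given as log2 of the cluster miRNA over its relative, with an SE from the 4 ratios per strain. The level of such a ratio depends on the probes, so only its change between strains can be read, and it shows unequal change rather than which miRNA changed.

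**Figure D2:**
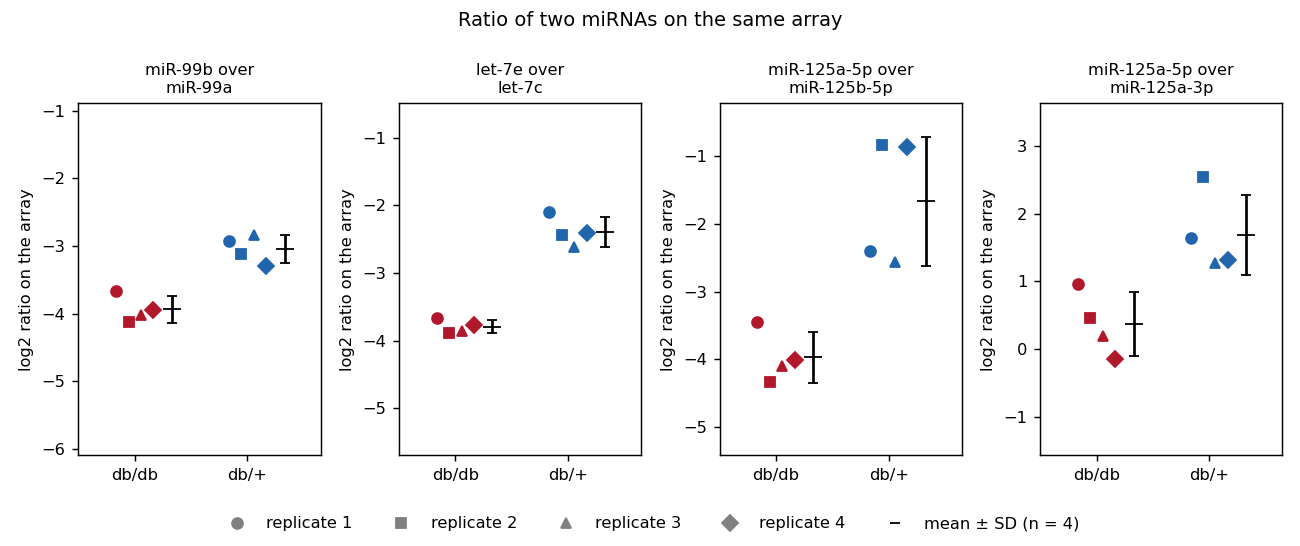
The log2 ratio of 2 miRNAs on the same array for db/db (red, left) and db/+ (blue, right) mice. Marker shapes give the replicate and black bars the mean ± SD over 4 arrays. In all 4 ratios each db/db array lies below each db/+ array, and db/+ replicates 2 and 4 stand apart for miR-125a-5p over miR-125b-5p.

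let-7e over let-7c was -3.67, -3.88, -3.86 and -3.77 in db/db, against -2.10, -2.44, -2.62 and -2.42 in db/+. The strains were separated by a wide gap and each was tight, with means of -3.80 ± 0.10 in db/db and -2.39 ± 0.22 in db/+. The difference was -1.40 (SE 0.12). Against let-7a, from which let-7e differs by 1 base, the ratio was -4.55 to -4.32 in db/db and -3.52 to -2.84 in db/+, a difference of -1.30 (SE 0.16). In both ratios the change was larger than in let-7e alone, because let-7c and let-7a had positive differences of 0.40 and 0.30.

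miR-125a-5p over miR-125b-5p was -3.44, -4.33, -4.10 and -4.01 in db/db, against -2.40, -0.83, -2.56 and -0.86 in db/+. The strains did not overlap, and db/+ replicates 2 and 4 again stood above replicates 1 and 3. The means were -3.97 ± 0.38 in db/db and -1.66 ± 0.95 in db/+, a difference of -2.31 (SE 0.51). The array factor cancels in the ratio, but array differences that vary by probe, given below, do not. Their part in this split was not tested.

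miR-99b over miR-99a was -3.67, -4.12, -4.02 and -3.95 in db/db, against -2.92, -3.12, -2.84 and -3.30 in db/+. These did not overlap, with a difference of -0.89 (SE 0.14). Against miR-100 the difference was -0.67 (SE 0.13), also without overlap. Both rest on the dim miR-99b, and with the highest detection limit as floor they came to -0.21 and 0.01.

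The arms of the Mir125a hairpin also changed unequally. miR-125a-5p over miR-125a-3p was 0.97, 0.47, 0.19 and -0.14 in db/db, against 1.64, 2.55, 1.28 and 1.31 in db/+. The difference was -1.32 (SE 0.38) without overlap. The 3′ arm was near background on several arrays, which limits this ratio, and the difference shrank to -0.24 with normexp background correction and -0.23 with raw median intensity.

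Among the 3 main miRNAs of the cluster, the extent of the difference depended on the background correction, the floor and the scaling. miR-125a-5p over miR-99b changed by -1.09 (SE 0.40), and the strains touched but did not overlap, with 1.18 on the highest db/db array and 1.20 on the lowest db/+ array. let-7e over miR-99b changed by -0.32 (SE 0.15) and let-7e over miR-125a-5p by 0.77 (SE 0.33), and in both the strains overlapped. With normexp these 3 changes came to -0.20, -0.05 and 0.15, and with raw median intensity the first came to -0.17.

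Each of these miRNAs was read by nested probes that share their 3′ end and differ by 1 base in length, so the probes of a miRNA check each other on the same array. The shorter miR-125a-5p probe, of 18 bases, read 3.26, 2.56, 2.39 and 2.68 in db/db, against 4.42, 4.86, 4.77 and 4.86 in db/+. On this probe the db/+ arrays lay close together, with an SD of 0.21 and a difference of -2.003. Its db/db values lay near the floor of 2.20, which limits how far the size of this difference can be read. The longer probe, of 19 bases, read 5.83, 5.23, 5.33 and 5.55 in db/db, against 6.45, 8.04, 6.30 and 7.96 in db/+. The split of the db/+ arrays appeared on this longer probe, whose difference was -1.70. Within db/db the 9 to 10 spots of the shorter probe varied by a median of 64.1% (coefficient of variation), against 12.1% for the longer one. Within db/+ these values were 20.2% and 5.15%, so the shorter probe was the noisier in both strains.

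For let-7e the probes gave differences of -0.84 (18 bases) and -1.02 (19 bases), both without overlap of the strains. The miR-99b probes gave -0.62 (15 bases, overlapping) and -0.65 (16 bases, not overlapping). The miR-125b-5p probes gave 0.58 (16 bases, overlapping) and 0.54 (17 bases, not overlapping). All 4 probes of miR-125a-3p overlapped between strains, with differences of -0.66 to -0.21.

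The gap between longer and shorter probe differed by array in the same manner for most of these miRNAs. Its median over the 77 miRNAs compared was 1.71, 1.66, 1.70 and 1.74 in db/db, against 1.53, 1.88, 1.22 and 1.94 in db/+. The db/db arrays were alike, and in db/+ the gap was wider on the dim replicates 2 and 4 than on the bright replicates 1 and 3. let-7e had gaps of 1.86, 1.99, 1.97 and 1.85 in db/db, against 1.73, 2.80, 1.24 and 2.59 in db/+. miR-125a-5p had gaps of 2.58, 2.66, 2.94 and 2.86 in db/db, against 2.04, 3.19, 1.53 and 3.096 in db/+. The part of this array pattern in the spread of the db/+ values was not tested.

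**Figure D3:**
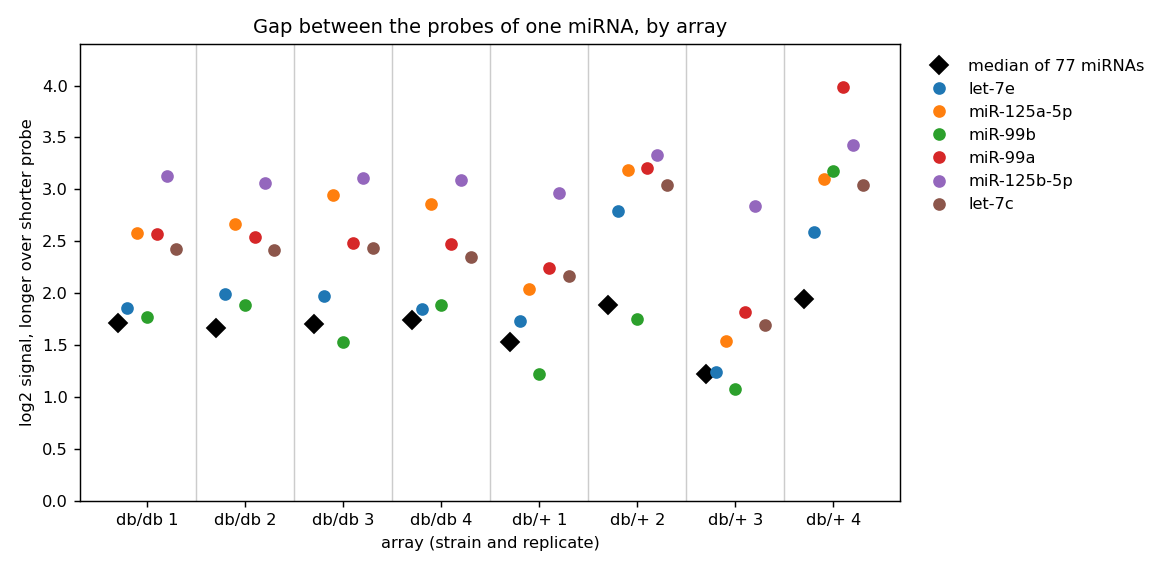
Log2 signal of the longer over the shorter probe of a miRNA on each array, db/db arrays left and db/+ arrays right. Coloured points are single miRNAs and black diamonds the median over 77 miRNAs, which is 1.66 to 1.74 in db/db and 1.22 to 1.94 in db/+.

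The let-7 miRNAs show what relatives of let-7e did on the same arrays. let-7c had levels of 11.21, 11.47, 11.25 and 11.54 in db/db, against 10.68, 11.22, 10.75 and 11.21 in db/+, and db/db replicate 1 lay just below db/+ replicate 2, so the strains overlapped. let-7a had levels of 11.86, 12.09, 11.93 and 12.18 in db/db, against 11.80, 11.78, 11.65 and 11.63 in db/+, without overlap. None of the 8 let-7 family miRNAs tested beside let-7e (limma, over all miRNAs) passed, 1 had an unadjusted p under 0.05, and SAM called 0. Their differences ran from 0.00 to 0.40. Their sign depended on the scaling, with 8 of 8 positive as reported, 6 of 8 with 75th percentile scaling and 4 of 8 with quantile normalization. 75th percentile scaling moved the median of all miRNAs by -0.13, and cyclic loess over the tested miRNAs moved it by -0.12. let-7e was lower in db/db under every scaling run.

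Other relatives added little. miR-10a, a relative of miR-99 with a different seed, had a difference of -0.27 and did not pass. miR-10b was detected on no db/db array and on 2 of 4 db/+ arrays, and miR-351, which has the seed of miR-125, on none. Of 8 passenger strands of these clusters 4 were on the array, none was detected often enough to be tested, and let-7c-1* and miR-125b-3p were not detected at all.

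Of the markers of other liver cells, some passed the same fit, in which 5.51% of all tested miRNAs passed as lower in db/db and 9.45% as higher. Of 7 leukocyte miRNAs 4 were tested, and all 4 had lower means in db/db (3 of 4 with quantile normalization), 2 of them passing. The differences of these 4 were uneven, from -1.10 to -0.04. The other 3 were detected on no db/db array. The log2 of the summed signal of all 7 was 8.35 to 8.73 in db/db and 9.01 to 9.59 in db/+. Of 6 stellate and smooth muscle cell miRNAs 4 were tested, with positive differences (3 of 4 with 75th percentile scaling). Of these 4, miR-31 alone passed, as higher. All of these but miR-31 were detected on 4 of 4 db/db and 3 of 4 db/+ arrays. Those were tested only through db/db, where their means were higher, so the count of positive differences depends on the filter. The untested miR-145 had a difference of -0.0003. The summed levels of those on the array were 7.69 to 8.11 in db/db and 7.00 to 7.46 in db/+. Of the bile duct miRNAs 2 were tested and 1 passed as higher. Both were detected on 4 of 4 db/db and 3 of 4 db/+ arrays. They too were tested only through db/db, where their means were higher. Among the untested ones, miR-200c and miR-141 had differences of -0.21 and -0.22, and miR-429 of 0.25. The summed levels of the bile duct miRNAs were 6.37 to 6.70 in db/db and 6.06 to 6.12 in db/+. Without scaling none of these leukocyte, stellate and bile duct calls held, and with cyclic loess over all miRNAs 1 leukocyte call did. Of 5 hepatocyte, 2 endothelial and 1 erythroid miRNAs tested, limma and SAM called 0, and 1 hepatocyte miRNA had an unadjusted p under 0.05. Each sum adds signals of different probes, whose levels are not comparable, so its brightest members weigh most. The leukocyte sum was lower in db/db like let-7e and miR-125a-5p, and the stellate and bile duct sums were both higher like miR-125b-5p. The separation of the stellate sums rested on miR-31, at 6.79 to 7.46 in db/db and 5.87 to 6.24 in db/+. The sums of the other 4 on the array, a choice made after seeing the data, overlapped at 6.49 to 6.87 in db/db and 6.11 to 6.65 in db/+. The part of these cell types in the differences was not tested.

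The miRNAs most like each member were found by the root mean square difference between log2 profiles centred over the 8 arrays, where a small value means that 2 miRNAs moved together. For let-7e these were miR-21 (0.20), miR-705 (0.24) and miR-223 (0.27), where the median over 120 other tested miRNAs was 0.67. For miR-125a-5p the same names came up as miR-705 (0.58), miR-21 (0.64) and miR-223 (0.65), against a median of 1.10. For miR-125b-5p they were miR-140* (0.07), let-7a (0.16) and miR-709 (0.17), against a median of 0.40. miR-21, miR-705 and miR-223 had differences of -0.78, -0.99 and -0.74. These profiles hold the strain difference that the members were picked by, and share the arrays and their scaling.

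The authors' deposited table gives a normalized score per miRNA, and the sources used here do not give the base of its logarithm. In the authors' deposited table let-7e scored 1.75, 1.79, 1.74 and 1.76 in db/db, against 2.08, 1.99, 1.97 and 1.98 in db/+. miR-125a-5p scored 1.37, 1.26, 1.25 and 1.26 in db/db, against 1.44, 1.81, 1.43 and 1.68 in db/+ in the authors' deposited table. Both were lower in db/db without overlap there. miR-99b scored 0.91 to 1.14 in db/db and 0.90 to 1.25 in db/+, and miR-125b-5p 1.95 to 2.08 in db/db and 1.88 to 2.01 in db/+, so that both overlapped in the authors' deposited table, as did miR-125a-3p, miR-99a and miR-100.

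The difference of each miRNA under other background corrections, scalings, floors, probes and sets of arrays kept its sign in let-7e, miR-125a-5p, miR-99b, miR-125a-3p and miR-125b-5p. let-7e ran from -1.17 to -0.65 and miR-125a-5p from -2.09 to -0.56, each negative in 24 of 24 alternatives. miR-99b ran from -0.96 to -0.003. miR-100 was negative in 17 and positive in 7 of 24, and miR-99a was negative in 1 of 24.

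**Figure D4:**
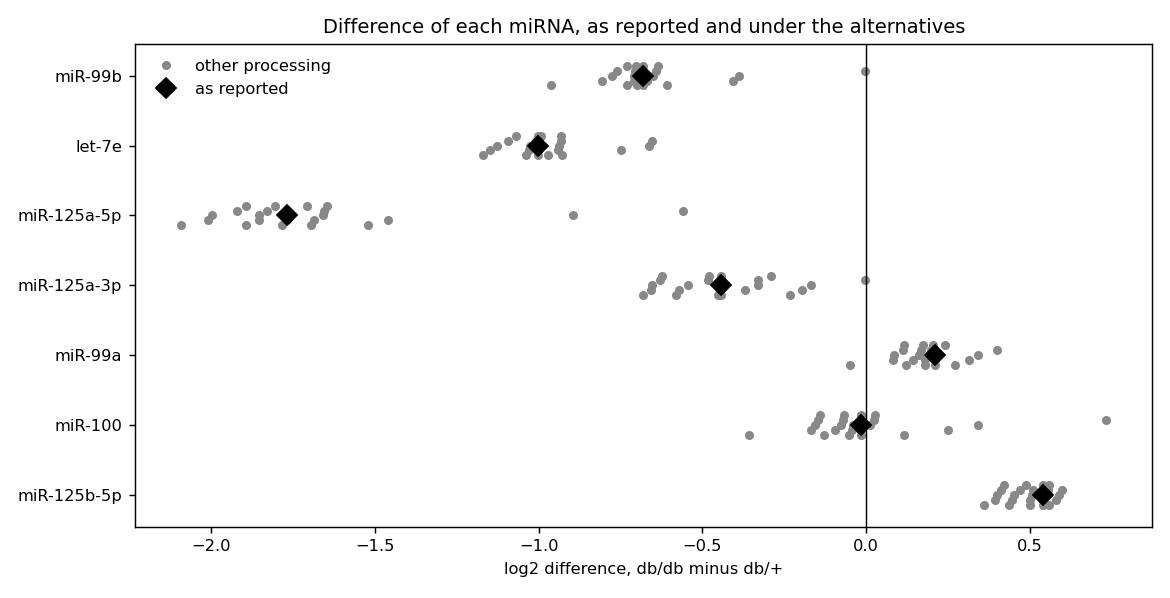
Log2 difference, db/db minus db/+, of each miRNA as reported (black diamonds) and under 24 alternatives (grey points, spread vertically for visibility). The line marks 0; let-7e and miR-125a-5p stay left of it, miR-125b-5p stays right of it between 0.36 and 0.60, and miR-100 lies on both sides.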

How the data were processed

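Total liver RNA was labelled with a Cy3 nucleotide, per the labels' protocols, and read on 1 array per animal. The series text states 4 animals per strain. The deposited spot intensity values come, per the file headers, from version 9.5.3.1 of Feature Extraction and were background-subtracted but not scaled between arrays. The deposited flags for detected miRNAs, outlier spots and spots well above background are other values, 0 or 1, per the file headers. The authors deposited a score for 139 miRNAs, described in the series text as median normalized and log transformed.

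Control spots and outlier spots (3.42% to 4.84% per array) were left out. Spots were averaged per probe and probes per miRNA. A miRNA counted as well above background where at least a 0.5 share of the spots of any of its probes carried that flag. Arrays were scaled by the median of the 89 miRNAs that every array detected, values were floored at 4.59, and log2 was taken. A miRNA entered the fit when either strain had it detected on every array, which left 127. The fit used limma (version 3.58.1, R 4.3.3) with lmFit and eBayes, a term for strain alone, and Benjamini-Hochberg adjustment over all 127. No depth exists for arrays, and their number limits the precision. Files were read with the R package data.table (version 1.17.8), and matplotlib 3.10.9 drew the plots.

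The members and lists were chosen with earlier results of these data known. Named were the 7 miRNAs, let-7a and let-7c, miR-351, miR-10a, miR-10b, the passenger strands, and the 3 miRNAs most like let-7e, miR-125a-5p and miR-125b-5p. Marker lists are mainly given as counts and ranges. Sequences and gene names came from RefSeq tables of GRCm38.p6, and coordinates from the array files (mm9). Alternatives covered scaling, background, floor, filter, probes, arrays left out, array weights, SAM and the authors' scores.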

Additional observations from a re-analysis of the deposited data

Results flagged for a closer look

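In 32 sets of 4 arrays (7 miRNAs and 9 ratios in each strain), the gap between the most extreme array and its neighbour was set against the range of the set, and chance alone marks about 1 set in 20. It marked 1 set. miR-99a on db/db replicate 1 had a level of 7.54, below the other db/db arrays at 7.94, 7.98 and 7.94. This gap was a share of 0.92 of the range of the set. The db/+ levels of miR-99a, 7.45, 7.83, 7.38 and 7.91, enclose that value.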

How the results depend on the processing

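Under 29 alternatives, 22 left between 3 and 5 of the 7 miRNAs past the threshold, where 4 passed as reported. As reported, 19 of all 127 tested miRNAs passed. Under the 22 alternatives this number ran from 9 of 133, without db/+ replicates 1 and 4, to 42 of 127. The latter came with array weights, which gave the count of 5. The count was 0 without scaling, 0 with normexp background correction and 0 with raw median intensity (limma). Of all 127 tested miRNAs these settings called 0, 2 and 1. At an unadjusted p under 0.05 the same settings gave 0, 5 and 1 of the 7 miRNAs. SAM, run on the scaled data as reported and not under these settings, called 4 of the 7 and 26 of all 127. The count was 1 with cyclic loess over all miRNAs, 1 with the authors' deposited scores, 1 with no filter and 2 with the shortest probes. Among all tested miRNAs these settings called 6 of 127, 3 of 139, 4 of 567 and 8 of 127. The cause of these lower counts was not tested, except that no filter raises the number tested to 567. Leaving out 1 array at a time gave counts of 3 to 4, with let-7e, miR-125a-5p and miR-99b called in 8 of 8 and miR-125b-5p in 2 of 8.

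let-7e over let-7c changed by -1.03 with quantile normalization and -1.68 with the authors' scores, and by -1.48 to -1.30 with 1 array left out. miR-125a-5p over miR-125b-5p changed by -1.32 with normexp and -0.96 with raw median intensity, and by -2.61 to -2.03 with 1 array left out. miR-99b over miR-99a changed by -0.55 with raw median intensity, -0.36 with the authors' scores, -0.21 with the highest floor and -1.10 with the shortest probes, and by -0.98 to -0.82 with 1 array left out. Differences turned sign in 3 ratios. let-7e over miR-125a-5p came to -0.10 with raw median intensity, let-7e over miR-99b to 0.078 with cyclic loess, and miR-99b over miR-100 to 0.012 with the highest floor. The cause of these moves was not tested. Scores were put on a log2 scale by their slope of 0.21 score units per log2 unit (0.19 to 0.22 between arrays), so their sizes are approximate.

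Scaling to the median of all mouse miRNAs was not run, because that median was at or below 0 on 3 arrays. With a replicate block for numbers 3 and 4, 3 miRNAs passed, and miR-125b-5p did not. The main fit had no such block because the titles number only some of the db/+ arrays. Arrays sharing a number deviated together with r = 0.04 for number 3 and r = 0.31 for number 4. They also shared a column of the slide. Cyclic loess over the tested miRNAs, the probe choices and the further ratios were added after seeing the data. Signal over background limits miR-99b and miR-125a-3p, which were not detected on db/+ replicate 4.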
